A study of Sus scrofa with 8 samples.

Results

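The genes for the transcription factors MEF2A, MEF2C, MEF2D and SRF and for the SRF coactivator MYOCD were followed in ATAC-seq peak lists of porcine muscle satellite cells. ATAC-seq cuts and tags open chromatin with a transposase, so that a peak marks DNA that was accessible in the cells sampled. Peaks of all 8 libraries were merged wherever they overlapped by 1 bp, and a region belonged to the set when the nearest end of a protein-coding gene, within 50 kb, was an end of 1 of the 5 genes. This rule gave 79 of 178498 regions, of which 114950 were linked to any gene. MEF2C had 36 regions, MEF2D 22, MEF2A 10, MYOCD 8 and SRF 3.

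The 4 groups hold 2 libraries each and are named CBP at 60 h, WT at 60 h, CBP at 0 h and WT at 0 h. The 60 h groups are labelled as differentiation and the 0 h groups as proliferation. The protocol given for every library names SGC-CBP30 at 5 uM/ml, for 48 h in proliferation and for 60 h in differentiation. This compound is an inhibitor of the bromodomains of CBP and its relative EP300. Whether the libraries named CBP are the treated ones is not said in the labels, and both names are used here as labels. Every library carries the cell line name C3H, while the organism is pig and the peaks lie on pig chromosomes. Replicates are not said to come from separate cultures or animals, so p-values here cover the spread between these libraries alone, and that spread may be technical. Fewer accessible cells and less accessibility per cell cannot be told apart in these bulk samples.

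MEF2 proteins are MADS-box transcription factors that bind A/T-rich sites and act together with the myogenic bHLH factors to switch on contractile and metabolic genes as myoblasts differentiate. Class IIa histone deacetylases hold them inactive, calcium-dependent and MAP kinases release them, and the acetyltransferases CBP and EP300 serve as their coactivators. SRF is the related MADS-box factor that binds CArG boxes in actin, cytoskeletal and immediate early genes, either with myocardin family coactivators or with ternary complex factors, and MYOCD is the coactivator best known from smooth muscle and heart.

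All 3 SRF regions were called in all 8 libraries. The regions of the other 4 genes included both constantly called and variable ones, and the variable ones were weaker in the median, with overlap between the 2 kinds. Of the 79 regions, 27 were called in every library, which is 34.2% of them, against 28.3% of all regions and 31.8% of linked regions. These were 14 regions of MEF2C, 7 of MEF2D, 3 of SRF, 2 of MEF2A and 1 of MYOCD. A further 19 regions were called in 1 library, a share of 24.1%, against 22.6% of all regions, and 33 were called in 2 to 7 libraries. The strength of a peak is given below as the authors' −log10 q, which is higher for a stronger peak, or as the percentile of its authors' −log10 p among all peaks of its library, where 100 is the strongest. The median percentile, averaged over the libraries with a call, was 69.1 for the 27 regions called everywhere, 24.3 for the 33 called in 2 to 7 libraries and 13.5 for the 19 called in 1. Over all regions these medians were 72.0, 29.4 and 10.2. Among single regions the order could turn, with MEF2D region 14 (called in 5 libraries) at 56.8 and MYOCD region 8 (called in 7) at 55.4, against 28.3 for MEF2D region 20, which was called in all 8.

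**Figure D1:**
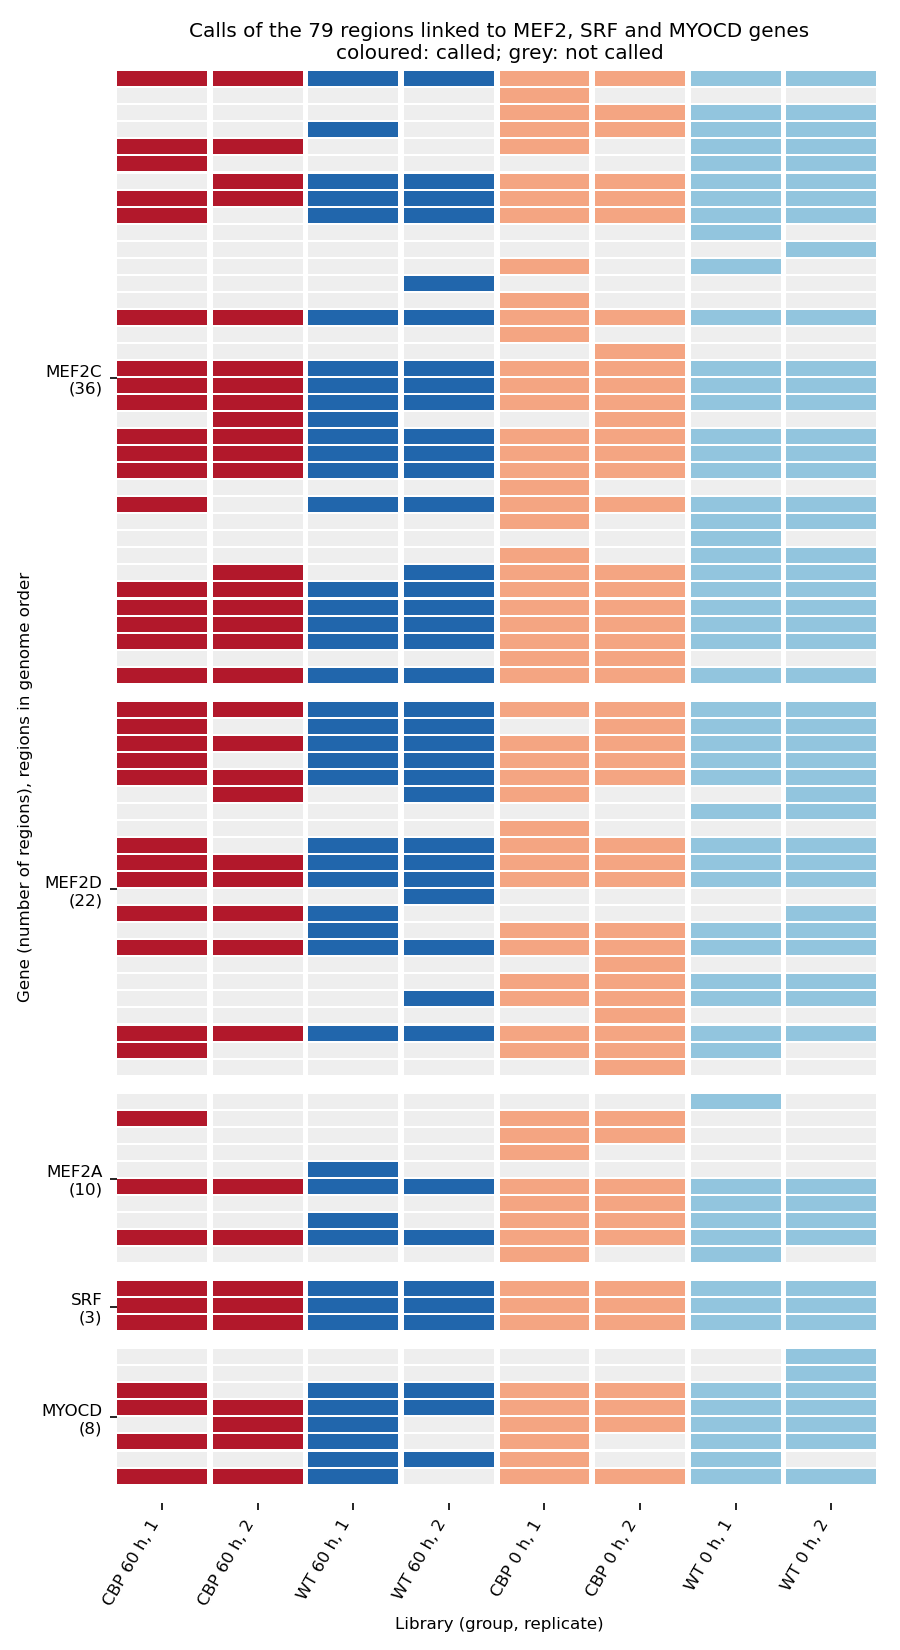
Calls of the 79 regions (down the page, grouped by gene, in genome order within a gene) in the 8 libraries (across). A coloured cell is a region overlapped by a peak of that library and a grey cell is one that is not. All 3 SRF regions are coloured across, while 10 MEF2A regions hold 2 such lines and 8 MYOCD regions hold 1.

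SRF (chromosome 7, 38213300 to 38223686) had the strongest regions of the set as a gene. Region 1 lay over its lower-coordinate end, from 38212606 to 38214932. It had a −log10 q of 24.2 and 25.4 in CBP 60 h, 29.8 and 25.6 in WT 60 h, 42.4 and 34.0 in CBP 0 h, and 31.7 and 38.4 in WT 0 h. Region 2, inside the gene from 38216074 to 38216777, had 36.4 and 30.4 in CBP 60 h, 34.8 and 39.6 in WT 60 h, 39.8 and 37.1 in CBP 0 h, and 36.7 and 40.4 in WT 0 h. Region 3, over the upper end from 38222853 to 38224736, had 41.7 and 44.0 in CBP 60 h, 37.1 and 35.6 in WT 60 h, 46.3 and 43.2 in CBP 0 h, and 42.2 and 52.5 in WT 0 h. All 3 were strong in each library, with mean percentiles of 86.5, 90.1 and 93.1. Region 3 also covers an end of CUL9, a gene of the cullin family whose nearer end lies 336 bp away, so its accessibility belongs to both genes. On the other side PTK7 lies 7637 bp below SRF, so the linking rule gives SRF few regions. Counting every region inside SRF or within 50 kb of it gave 16. The gene table holds no strand, so neither end can be named as the promoter here or at the other 4 genes.

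MEF2D (chromosome 4, 93581563 to 93616980) encodes the MEF2 protein that is expressed most widely. Its strongest region, and the strongest of the 79 by mean percentile (97.8), was region 15, from 93622964 to 93625179, 5984 bp beyond the upper end of the annotated gene. There the −log10 q was 55.6 and 58.4 in CBP 60 h, 58.4 and 45.6 in WT 60 h, 61.9 and 60.4 in CBP 0 h, and 61.2 and 61.2 in WT 0 h. Region 5, over the lower end from 93580639 to 93581692, had a −log10 q of 23.8 and 15.3 in CBP 60 h, 12.9 and 17.8 in WT 60 h, 25.2 and 20.9 in CBP 0 h, and 20.5 and 21.7 in WT 0 h. Region 3, 3651 bp below that end, had a mean percentile of 82.6. No region lay over the upper end of the gene. The other 4 regions of MEF2D called in every library had mean percentiles of 81.6 for region 1, 66.1 for region 10, 56.3 for region 11 and 28.3 for region 20.

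MEF2C (chromosome 2, 96122407 to 96296927) encodes the MEF2 protein whose loss in mice disturbs heart and skeletal muscle development. It lies far from other genes, with TMEM161B 421831 bp below it and CETN3 1277075 bp above it, and 21 of its 36 regions lay outside the gene. The widest region of the 79 was MEF2C region 22, inside the gene from 96275282 to 96277661, with a width of 2380 bp and a mean percentile of 87.8. This region had a −log10 q of 32.7 and 27.2 in CBP 60 h, 20.2 and 20.4 in WT 60 h, 46.9 and 42.6 in CBP 0 h, and 42.1 and 46.3 in WT 0 h. Region 32, 32091 bp above the gene, followed with a mean percentile of 75.6. Region 26, the only one over an end of MEF2C (96296491 to 96297746), was called in 7 libraries. Its −log10 q was 3.29 and no call in CBP 60 h, 11.9 and 10.6 in WT 60 h, 12.7 and 8.70 in CBP 0 h, and 21.1 and 22.4 in WT 0 h. Its weakest call and its missing call were thus both in CBP 60 h libraries.

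**Figure D2:**
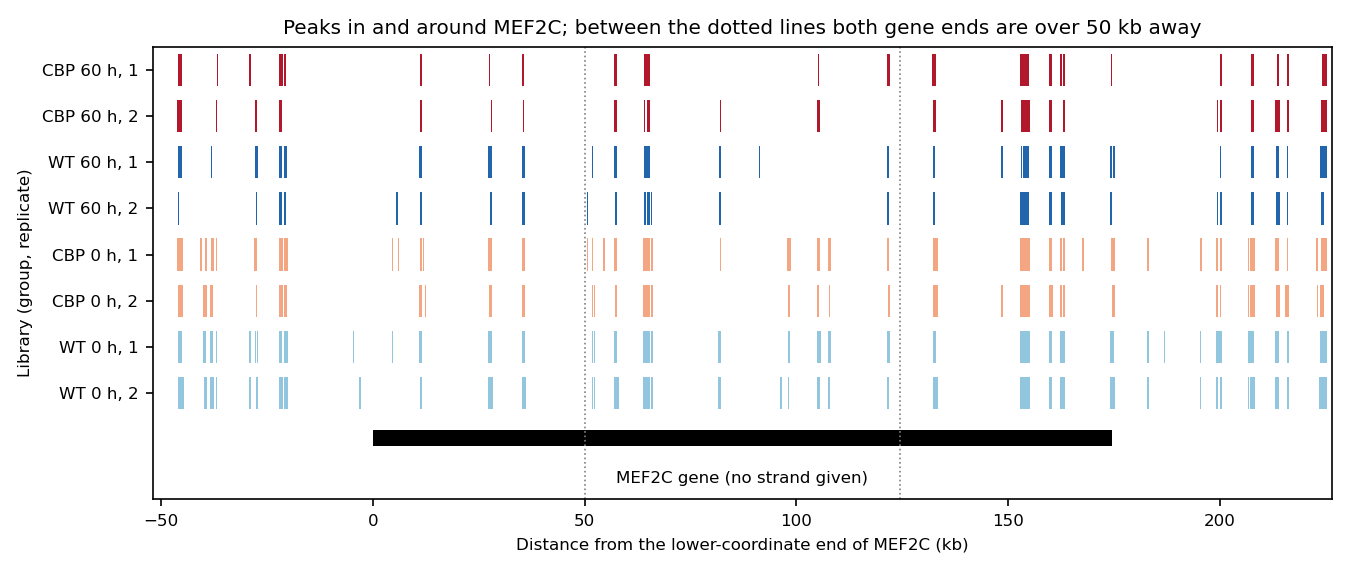
Peaks of each library (down the page) against the distance in kb from the lower-coordinate end of MEF2C, whose body is the black bar. Bars are authors' peaks at their true width, and between the dotted lines both gene ends are over 50 kb away, so those regions are not among the 36. The 60 h libraries lack many of the thin bars of the 0 h libraries below and above the gene. Most of the broadest bars stand in all 8, with exceptions such as region 26 over the upper end, which is missing in CBP 60 h replicate 2.

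MEF2A (chromosome 1, 138398270 to 138508639), which encodes the remaining MEF2 factor of the set, had the lowest share of called regions of the 5 genes, on average 27.5% at 60 h and 60% at 0 h. It had 2 regions called everywhere, both inside the gene. Region 6 (138436425 to 138437999) had a −log10 q of 13.8 and 8.28 in CBP 60 h, 7.59 and 11.04 in WT 60 h, 40.6 and 26.1 in CBP 0 h, and 34.5 and 25.9 in WT 0 h. Region 9 (138497603 to 138499409) had 11.6 and 13.5 in CBP 60 h, 12.1 and 12.8 in WT 60 h, 40.5 and 35.4 in CBP 0 h, and 29.2 and 38.6 in WT 0 h. No peak of any library lay over either end of MEF2A. The authors' −log10 q depends on sequencing depth, which differed between the times, so these values describe the libraries and are not a comparison of times.

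MYOCD (chromosome 12, 56931628 to 57029258) had 1 region called everywhere. This was region 4, over the lower end from 56931106 to 56931775, and it was weak, with a mean percentile of 32.9. Its −log10 q was 5.90 and 6.47 in CBP 60 h, 5.71 and 6.03 in WT 60 h, 11.8 and 4.02 in CBP 0 h, and 8.31 and 6.63 in WT 0 h. Region 8, inside the gene from 57005196 to 57006474, had a mean percentile of 55.4 and was called in every library but WT 60 h replicate 2. At the lower end of MYOCD, the peak was below the median of its list in each of the 8 libraries, at percentiles of 10.5 to 48.9.

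Libraries at 60 h had calls at fewer of the regions than libraries at 0 h. The numbers called of 79 were 40 and 36 in CBP 60 h, 44 and 40 in WT 60 h, 61 and 53 in CBP 0 h, and 57 and 55 in WT 0 h. The mean was 40 ± 3.27 regions at 60 h and 56.5 ± 3.42 at 0 h (SD, n = 4, CBP and WT together), and the times did not overlap. In percent this was 50.6% at 60 h and 71.5% at 0 h, against 45.3% and 68.8% of all regions. MEF2C was called at 18 and 18 regions in CBP 60 h, 19 and 19 in WT 60 h, 29 and 23 in CBP 0 h, and 27 and 25 in WT 0 h. MEF2D had 12 and 9 in CBP 60 h, 12 and 13 in WT 60 h, 15 and 17 in CBP 0 h, and 15 and 16 in WT 0 h. In both genes every 60 h library lay below every 0 h library. MEF2A had 3 and 2 in CBP 60 h, 4 and 2 in WT 60 h, 8 and 6 in CBP 0 h, and 6 and 4 in WT 0 h. MYOCD had 4 and 4 in CBP 60 h, 6 and 3 in WT 60 h, 6 and 4 in CBP 0 h, and 6 and 7 in WT 0 h. The times met at 4 regions for MEF2A and overlapped for MYOCD.

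Depth moved with the time. In units of the shallowest library, relative depth (solved from each peak's fold and −log10 p) was 1 to 1.21 at 60 h and 1.43 to 2.09 at 0 h, and the lists held 82696 to 88871 peaks at 60 h and 121757 to 135528 at 0 h. When each list was reduced to its 82696 strongest peaks, the numbers called of the same 79 regions were 38 and 35 in CBP 60 h, 43 and 40 in WT 60 h, 35 and 36 in CBP 0 h, and 42 and 38 in WT 0 h. The mean was then 39 ± 3.37 at 60 h and 37.75 ± 3.10 at 0 h (SD, n = 4), and the times overlapped. Of all regions, 43.4% were then called at 60 h and 45.0% at 0 h in the mean. In calls as deposited, the time and the depth cannot be told apart.

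**Figure D3:**
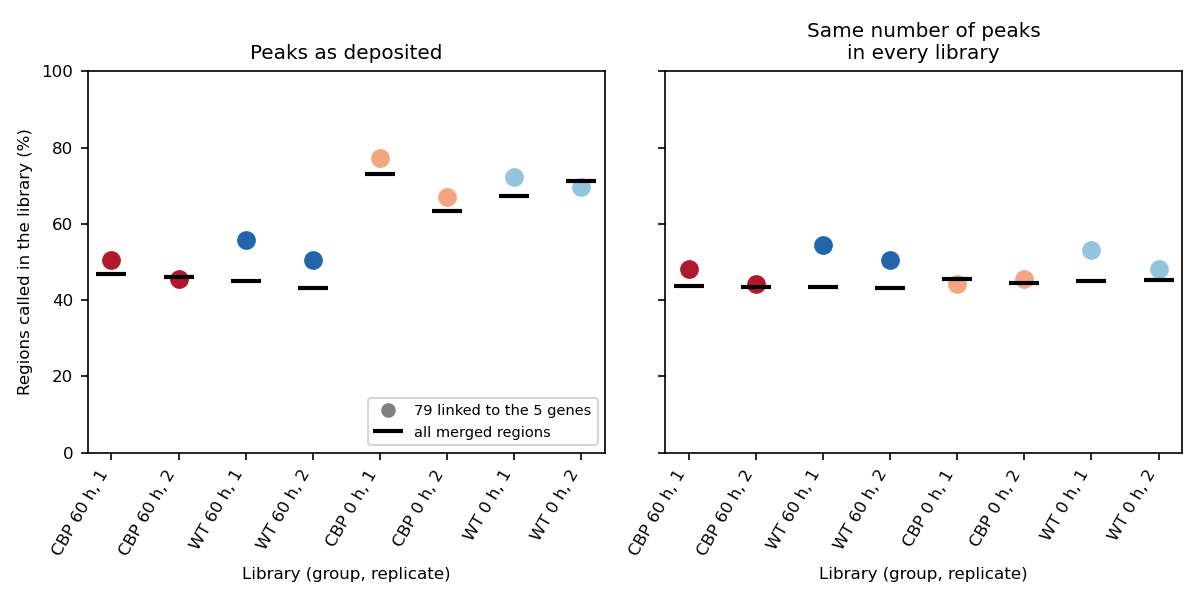
Share of regions called in each library, in percent, for the 79 regions (circles) and for all merged regions (black bars), with peaks as deposited (left) and with 82696 peaks in every library (right). On the left the 60 h circles lie below the 0 h circles, and on the right they overlap.

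The comparison of 60 h with 0 h asked which regions were lost or gained between proliferation and differentiation. A region is counted as closed when both libraries of the 0 h group called it and neither library of the 60 h group did, and as opened in the reverse case. Both words name a pattern of calls and no more. In CBP 60 h against CBP 0 h, 9 regions closed, 11.4% of the set, where 14.9% of all regions closed, and 1 opened, 1.27%, where 1.82% of all regions opened. In WT 60 h against WT 0 h, 8 regions closed, 10.1%, against 15.1% of all regions, and none opened, against 0.654%. As deposited, the shares of the set lay below the background for closed regions in both labels. When the peaks of a library had to cover 50% of a region, 15 closed in CBP (18.99% of the set, against 19.2% of all regions) and 13 in WT (16.5%, against 19.8%). With a −log10 q of at least 5, 12 of 62 closed in CBP (19.4%, against 19.7%) and 7 in WT (11.3%, against 20.1%). In CBP the share was thus near the background in both of these settings. With 2 libraries against 2, the smallest exact permutation p is 0.333, so these counts are descriptions. Counts change when 1 library has to stand for its group, which loosens the rule for every region. No share of all regions under the looser rule is given, here or below, so such counts describe these libraries alone. In CBP, 20 closed without CBP 0 h replicate 2 and 16 without CBP 60 h replicate 1, and 3 opened without CBP 0 h replicate 1 and 2 without CBP 60 h replicate 2. In WT, 14 closed without WT 0 h replicate 2 or without WT 60 h replicate 1, and 1 opened without WT 0 h replicate 1 and 2 without either WT 60 h replicate.

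**Figure D4:**
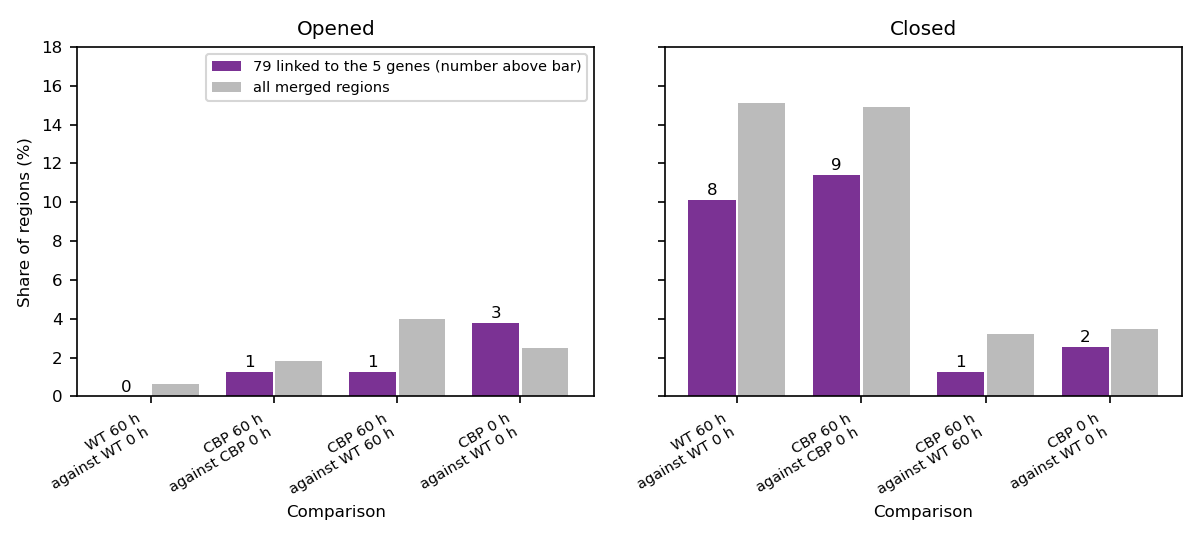
Share of regions that opened (left) or closed (right), in percent, in the 4 comparisons, for the 79 regions (purple, with the number of regions above the bar) and for all merged regions (grey). The purple bars are below the grey ones except for regions opened in CBP 0 h against WT 0 h, where 3 regions make 3.8%.

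Regions closed in both labels were 1 each at MEF2A, MEF2C and MEF2D. MEF2A region 7, inside the gene from 138472355 to 138473633, had no call at 60 h, against a −log10 q of 5.16 and 4.14 in CBP 0 h and 9.87 and 11.6 in WT 0 h. MEF2C region 3, 39273 bp below the gene from 96082323 to 96083134, had no call at 60 h, against 4.69 and 5.86 in CBP 0 h and 4.77 and 7.50 in WT 0 h. MEF2D region 17, 19166 bp above the gene from 93636146 to 93636666, had no call at 60 h, against 7.54 and 5.42 in CBP 0 h and 8.81 and 10.1 in WT 0 h. All 12 of these calls were in the weaker part of their lists, at percentiles below 50. The overlap of 3 regions is 33.3% of the 9 closed in CBP and 37.5% of the 8 closed in WT, against 38.2% and 37.7% over all regions.

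These were the 3 regions of the set called in 4 of 4 libraries at 0 h and 0 of 4 at 60 h, 3.8% of it, against 5.68% of all regions. None was called in 4 of 4 at 60 h and 0 of 4 at 0 h, against 0.131%. In a two-sided exact permutation test over the 8 libraries, such a region has p = 0.0286, the smallest that 8 libraries allow, and an adjusted permutation p = 0.491 over all 178498 regions. With this exact permutation test 0 regions of the whole series, and 0 of the 79, passed an adjusted p of 0.05, while 10378 regions (5.81%), and 3 of the 79, had an unadjusted p under 0.05. With equal peak numbers MEF2A region 7 and MEF2D region 17 were called in both WT 0 h libraries and in no other, and MEF2C region 3 in none.

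The other closed regions lay mostly outside the genes. At MEF2C, regions 4 and 35 closed in CBP, and regions 5, 6, 27 and 29 closed in WT. All of them lay outside the gene, 8346 bp to 48330 bp from its ends. Of the 21 outer regions of MEF2C, 7 changed in at least 1 of the 4 comparisons, and none of its 14 inner regions did, against 29.6% of all regions. A further 15 regions inside MEF2C are over 50 kb from both ends and so fall outside the linking rule, and 6 of these changed, so the count of 0 does not hold for the whole gene body. Regions 27 and 29 (96305273 to 96305756 and 96317716 to 96318106) were also called in CBP 0 h replicate 1 and in no 60 h library. Region 4 (96083909 to 96084872) was called in all 0 h libraries and in WT 60 h replicate 1. Regions 5, 6 and 35 also differed between the labels and are described with them.

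At MEF2D, regions 14 and 18 closed in CBP, and region 7, inside the gene from 93586257 to 93586484, closed in WT. Region 14, inside the gene from 93607956 to 93608901, was the strongest closed region of the set. It had no call in CBP 60 h, against a −log10 q of 17.5 and 12.8 in CBP 0 h. In WT 60 h it had 5.50 and no call, against 21.8 and 17.9 in WT 0 h. Region 18, 20452 bp above the gene from 93637432 to 93638087, had no call in CBP 60 h, against 12.7 and 11.12 in CBP 0 h, and no call and 4.76 in WT 60 h, against 15.96 and 15.3 in WT 0 h. Each kept 1 weak call at 60 h, in a different WT library. Both also closed in CBP with equal peak numbers. The region opened in CBP was MEF2D region 13, inside the gene (93606120 to 93606536). Its authors' −log10 q stood at 4.17 and 2.75 in CBP 60 h against no call in CBP 0 h, and with 1 call of 2 in WT at each time.

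At MEF2A, regions 3 and 8 closed in CBP beside region 7. Region 8, inside the gene from 138480503 to 138480989, had no call in CBP 60 h, against a −log10 q of 6.51 and 4.83 in CBP 0 h. WT called it in replicate 1 at 60 h (4.40) and in both libraries at 0 h (4.69 and 5.11). Region 3 was called in CBP 0 h libraries alone. No region of MYOCD opened or closed between the times in either label, nor did any of SRF. In all, 14 regions closed in CBP or WT, with a median mean percentile of 20.7, against 30.9 for the 43291 regions of the series that did so.

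With equal peak numbers, the counts of CBP 60 h against CBP 0 h were 2 opened and 2 closed, with 6.03% and 8.15% of all 128356 regions called in that setting. The opened ones were MEF2C region 5 and MYOCD region 6. For WT 60 h against WT 0 h the counts were 3 opened and 2 closed, against 3.77% and 5.91% of all regions, and the opened ones were MEF2C region 7, MEF2D region 2 and MYOCD region 7. At equal list length closed regions thus did not outnumber opened ones in the set in either label, while over all regions they did in both. Equal length fixes the number of peaks per library, which itself limits any excess. These counts therefore cannot tell time from depth. In that setting 57 of the 79 regions had a call in any library.

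CBP 0 h was set against WT 0 h to see how the labels differed in proliferation, where the lists overlapped in depth (1.43 and 1.98 in CBP, 1.69 and 2.09 in WT). In CBP 0 h, 3 regions opened, 3.8% of the set, where 2.51% of all regions opened. These were MEF2A regions 2 and 3, below the gene from 138356003 to 138356677 and from 138391916 to 138392270, and MEF2C region 35, above the gene from 96345257 to 96345581. Their −log10 q in CBP 0 h was 5.05 and 3.22 for MEF2A region 2, 3.91 and 4.14 for MEF2A region 3, and 8.50 and 8.20 for MEF2C region 35, with no call in WT 0 h. None was called in WT 60 h, and MEF2A region 2 was also called in CBP 60 h replicate 1 (2.64). All 3 were thus called in CBP libraries alone, though none in all 4.

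In CBP 0 h, 2 regions closed, 2.53% of the set, where 3.47% of all regions closed. MEF2C region 6, below the gene from 96093150 to 96093481, had no call in CBP 0 h, against a −log10 q of 3.05 and 3.56 in WT 0 h, and MEF2D region 7 had no call in CBP 0 h, against 3.98 and 4.28 in WT 0 h. Both were near the limit of what was called, with percentiles of 4.08 to 13.1. With equal peak numbers none opened (2.8% of all regions did) and 3 closed (3.35% of all regions did), namely MEF2A region 7, MEF2C region 30 and MEF2D region 17. So none of the 5 regions held in that setting. With peaks as deposited, 8 opened without CBP 0 h replicate 1 and 9 without CBP 0 h replicate 2. The number closed was 6 without WT 0 h replicate 1, 5 without WT 0 h replicate 2 and 6 without CBP 0 h replicate 1.

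At 60 h, where depth was 1.21 and 1.08 in CBP and 1.11 and 1 in WT, the labels differed at 1 region in each direction with peaks as deposited. The number closed depended on the setting. It was 4 of 62 regions (6.45%, against 3.45% of all regions) with a −log10 q of at least 5 and 5 of 79 (6.33%, against 3.25%) with 50% of a region covered, so the share of the set was above the background there. MEF2C region 5, 36517 bp below the gene from 96085218 to 96085890, opened, 1.27% of the set against 4.01% of all regions. Its −log10 q was 3.67 and 5.48 in CBP 60 h against no call in WT 60 h, and 4.72 and no call in CBP 0 h against 2.82 and 6.60 in WT 0 h. MYOCD region 7, inside the gene from 57003786 to 57004416, closed, 1.27% of the set against 3.19% of all regions. It had no call in CBP 60 h against 11.3 and 9.69 in WT 60 h, and 4.25 and no call in CBP 0 h against 6.30 and no call in WT 0 h. Its WT 60 h peaks lay at percentiles of 57.8 and 56.2, above the middle of their lists.

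Both differences at 60 h held with equal peak numbers. MEF2C region 5 was then called in both CBP 60 h libraries and in no other library, and MYOCD region 7 in both WT 60 h libraries and in no other. MYOCD region 6, inside the gene from 56977575 to 56978477, joined them as opened in that setting, which gave 2 opened and 1 closed, where 4.87% of all regions opened and 4.83% closed. With peaks as deposited its calls had run through both labels and times, with 6.26 and 3.76 in CBP 60 h and 2.31 and no call in WT 60 h. Without WT 60 h replicate 1 the deposited counts were 4 opened and 4 closed, without WT 60 h replicate 2 the number closed was 5, without CBP 60 h replicate 1 it was 7, and without CBP 60 h replicate 2 there were 4 opened and 2 closed. Over both times together, none of the 79 regions was called in all 4 CBP libraries and no WT library, or the reverse, where 0.2% and 0.226% of all regions were.

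Calls do not show changes in regions that every library holds, so such regions were also compared by rank. Each list was reduced to its 82696 strongest peaks by the authors' −log10 p, and a region's rank is the percentile of its strongest peak, 100 being the highest. This measure was chosen after calls had been seen. Of 45073 regions present in all 8 reduced lists, 24 belonged to the set, and 7 of them ranked higher in every 60 h library than in any 0 h library. This was 29.2% of the 24, where 12.2% of all such regions did so. A further 2 ranked lower, 8.33%, against 9.72%. Each of these 9 had a two-sided exact permutation p = 0.0286, the smallest that 8 libraries allow, and an adjusted permutation p = 0.13 over the 45073 regions. None of the 45073 passed an adjusted permutation p of 0.05, and 9902 of them (22%) had an unadjusted p under 0.05. The ranks therefore describe order between these libraries and did not pass the threshold.

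All 3 SRF regions were among the 7 that ranked higher at 60 h. SRF region 1 ranked at 84.5 and 84.9 in CBP 60 h, 86.4 and 85.9 in WT 60 h, 82.8 and 81.5 in CBP 0 h, and 74.4 and 79.7 in WT 0 h. SRF region 2 ranked at 92.3 and 88.8 in CBP 60 h, 90.1 and 94.6 in WT 60 h, 80.3 and 84.6 in CBP 0 h, and 80.3 and 81.7 in WT 0 h. SRF region 3 ranked at 94.5 and 95.7 in CBP 60 h, 91.4 and 92.7 in WT 60 h, 86.1 and 89.6 in CBP 0 h, and 85.4 and 90.7 in WT 0 h. The means were 85.4 ± 0.846 and 79.6 ± 3.69 for region 1, 91.5 ± 2.56 and 81.7 ± 2.02 for region 2, and 93.6 ± 1.87 and 87.9 ± 2.61 for region 3, at 60 h and at 0 h (SD, n = 4 each). Regions over gene ends did this more often across the series, with 2240 of 9955 (22.5%) ranking higher at 60 h and 2.47% lower. SRF regions 1 and 3 lie over ends, and region 2 lies 2774 bp inside the gene.

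The others that ranked higher at 60 h were MEF2C regions 8 and 20 and MEF2D regions 1 and 10. MEF2C region 8, 21176 bp below the gene from 96100174 to 96101231, had the largest difference of the 24, 57.8 ± 2.65 at 60 h and 26.3 ± 13.1 at 0 h (SD, n = 4 each). It ranked at 57.0 and 59.5 in CBP 60 h, 54.5 and 60.4 in WT 60 h, 45.8 and 18.2 in CBP 0 h, and 19.4 and 21.9 in WT 0 h. MEF2D region 10, inside the gene from 93592659 to 93593921, followed with 67.0 ± 1.77 at 60 h and 43.5 ± 7.83 at 0 h. MEF2D region 1 had 80.6 ± 1.75 at 60 h and 71.2 ± 3.32 at 0 h, and MEF2C region 20 had 72.4 ± 9.58 and 57.5 ± 4.16. The 2 that ranked lower at 60 h were MEF2A region 9, with 63.3 ± 3.88 at 60 h and 78.7 ± 5.35 at 0 h, and MEF2C region 32, with 62.7 ± 12.3 and 79.8 ± 4.33 (SD, n = 4 each). When ranks were taken by the authors' fold in place of −log10 p, MEF2C region 20, MEF2A region 9 and MEF2C region 32 no longer separated the times, and the other 6 did. By fold, MEF2C regions 22 and 36 and MEF2D region 15 also ranked higher at 60 h, which gave 9 of 24, and MEF2A region 6 ranked lower. Within WT, MEF2C region 22 ranked lower at 60 h by −log10 p and higher by fold. Which regions separated the times thus depended on the measure.

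**Figure D5:**
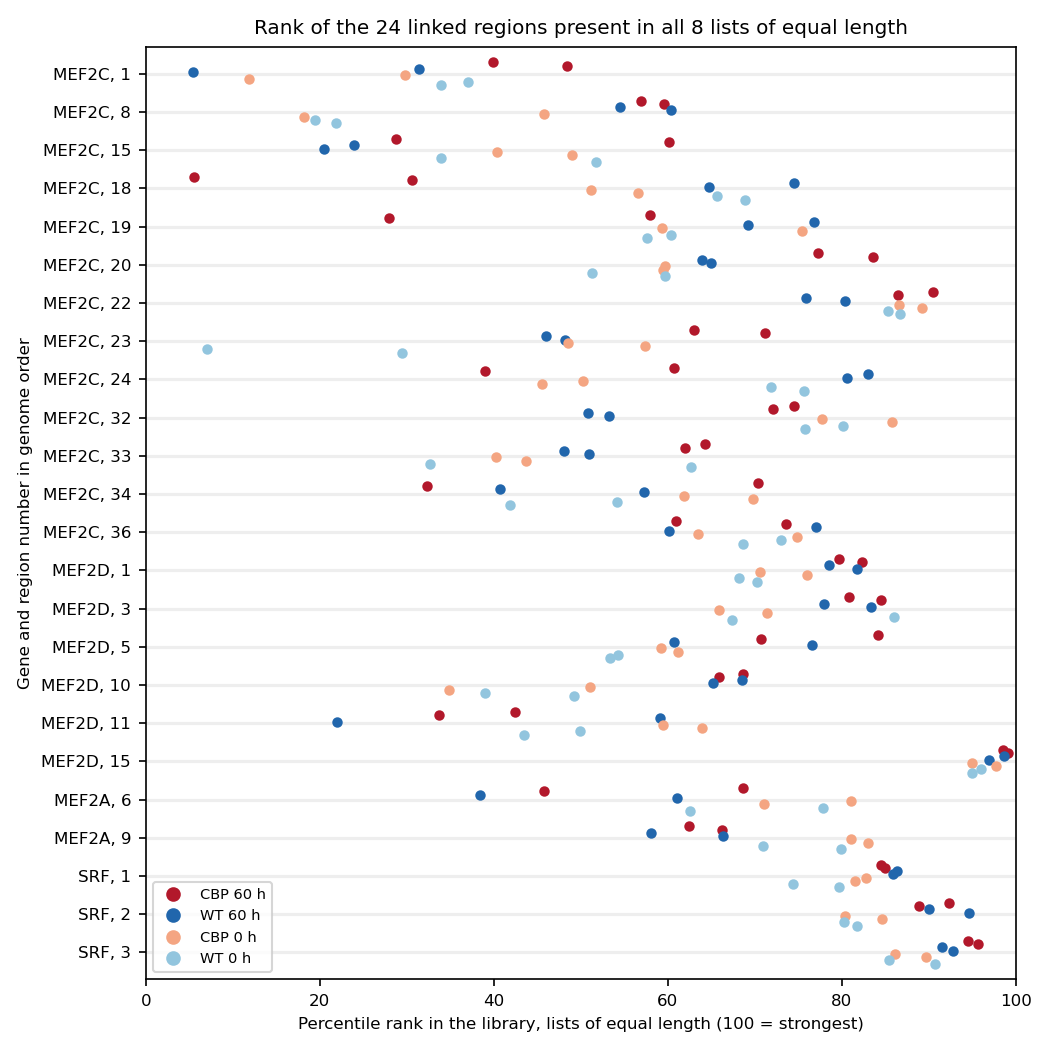
Percentile rank of the 24 regions present in all 8 lists of equal length (down the page, by gene and region number), where 100 is the strongest peak of a library. Each point is 1 library, coloured by group. The 3 SRF lines lie between 74.4 and 95.7 with every 60 h point to the right of every 0 h point, and MEF2C region 8 has the widest gap in mean between the times.

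Within CBP, 13 of the 24 ranked higher at 60 h than at 0 h without overlap and 6 lower, against 32.3% and 28.2% of all such regions. Within WT, 12 ranked higher and 6 lower, against 29.6% and 26%. In CBP against WT at 60 h, 8 ranked higher and 4 lower, against 26% and 24.7%, and 14 ranked higher without WT 60 h replicate 2 and 7 lower without WT 60 h replicate 1. At 0 h, 7 ranked higher and 3 lower in CBP, against 22.8% and 20.6%. Without WT 0 h replicate 2 or without CBP 0 h replicate 1, 13 ranked higher at 0 h. The number lower was 7 without WT 0 h replicate 1 and 5 without either CBP 0 h replicate.

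Over both times, the regions that separated the labels in rank were all of MEF2C, which also supplied most of the 24 regions compared. MEF2C regions 18 and 24, both inside the gene, ranked lower in every CBP library than in any WT library, and region 23, next to region 24, ranked higher. Region 24 (96284651 to 96285952) ranked at 60.7 and 38.9 in CBP 60 h, 83.0 and 80.6 in WT 60 h, 50.3 and 45.5 in CBP 0 h, and 71.9 and 75.6 in WT 0 h. Region 18 (96149493 to 96150750) ranked at 5.55 and 30.6 in CBP 60 h, 74.5 and 64.8 in WT 60 h, 51.1 and 56.6 in CBP 0 h, and 65.6 and 68.9 in WT 0 h. Region 23 (96282063 to 96282917) ranked at 63.0 and 71.2 in CBP 60 h, 46.0 and 48.2 in WT 60 h, 48.5 and 57.4 in CBP 0 h, and 6.997 and 29.4 in WT 0 h. Means were 48.9 ± 9.15 in CBP and 77.8 ± 5.02 in WT for region 24, 36.0 ± 23.2 and 68.4 ± 4.44 for region 18, and 60.0 ± 9.55 and 32.6 ± 19.04 for region 23 (SD, n = 4 each).

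The 2 that ranked lower in CBP are 8.33% of the 24, against 3.27% of all such regions, and the 1 that ranked higher is 4.17%, against 3.65%. Each had a two-sided exact permutation p = 0.0286, the smallest that 8 libraries allow, and an adjusted permutation p = 0.413 over 45073 regions. None of the 45073 passed this threshold, and 3117 (6.92%) had an unadjusted permutation p under 0.05. By the authors' fold, region 24 still separated the labels and regions 18 and 23 did not. Without WT 0 h replicate 2, or without CBP 60 h replicate 2, 2 regions ranked higher in CBP.

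The regions called in all 8 libraries were narrower at 60 h. Their covered length at 60 h was 0.821 times that at 0 h in the median of the 27, and 26 of 27 were narrower, against a median of 0.776 and 93.7% narrower over all 50575 such regions. The exception was SRF region 2, at 1.03 times. Summits of 1 region lay within a median range of 279 bp over the 8 libraries, against 146 bp over all such regions.

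Genes known to work with these factors had regions that closed, in calls as deposited, at shares near the linked background, which was 14.5% in CBP and 14.3% in WT between the times. Linked regions opened at 1.36% in CBP and 0.575% in WT. These calls carry the difference in depth, so counts of opened and closed regions are also given from lists of equal length. There, 7.69% of linked regions with a call closed in CBP and 5.36% in WT. In the same setting 5.02% opened in CBP and 3.61% in WT. SRF partners, 9 genes with 97 linked regions, had 15 closed and 0 opened in CBP (15.5% closed) and 16 closed and 0 opened in WT (16.5%). Lists of equal length gave this group 9 closed and 3 opened in CBP and 6 closed and 3 opened in WT. ELK3, a ternary complex factor, had the most in both labels, with 3 closed in CBP and 4 in WT of 22 regions, a number shared in WT by NKX2-5, a cardiac homeobox factor, and in CBP by the LIM-domain protein FHL2 (3 of 18). With equal list length ELK3 had 2 closed and 2 opened in CBP and 2 closed and 1 opened in WT. NKX2-5 then had 0 closed in WT, and FHL2 had 2 closed in CBP. In CBP against WT this list had 6 closed and 0 opened at 60 h and 5 closed and 0 opened at 0 h, 6.19% and 5.15% closed, against 3.17% and 3.35% of linked regions. MRTFA, listed as MKL1 and known as the actin-regulated coactivator of SRF, had 2 of 8 regions closed at each time. The same 2 closed at 60 h in lists of equal length, and none did at 0 h. In that setting 77 regions of SRF partners had a call. For CBP against WT, 1 of them opened and 6 closed (7.79%) at 60 h. At 0 h, 2 opened and 4 closed (5.19%). Of linked regions with a call, 3.82% opened and 4.76% closed at 60 h, and 2.55% and 3.24% at 0 h. The lack of opened regions between the labels thus did not hold with equal list length.

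MEF2 regulators, 15 genes with 147 linked regions, had 23 closed and 0 opened in CBP and 23 closed and 2 opened in WT between the times (15.6% closed in each). In lists of equal length there were 10 closed and 3 opened in CBP, against 6 closed and 5 opened in WT. The group also counts MEF2B, itself a MEF2 factor, with 2 of 6 regions closed in each label as deposited. With equal list length MEF2B had 0 closed and 1 opened in CBP, and 1 closed and 0 opened in WT. HDAC4, a class IIa deacetylase that represses MEF2, had 4 closed of 26 in WT, and CAMK2D, a calcium-dependent kinase, had 4 closed of 18 in both labels. With equal list length HDAC4 had 0 closed and 1 opened in WT, and CAMK2D had 1 closed in each label. Between the labels, CBP against WT, 3 opened (2.04%) and 6 closed (4.08%) at 60 h and 2 opened (1.36%) and 6 closed (4.08%) at 0 h. Of linked regions, 3.14% opened and 3.17% closed at 60 h, and 2.23% and 3.35% at 0 h. With equal list length 2 opened (1.96%) and 7 closed (6.86%) at 60 h, against 3.82% and 4.76% of linked regions with a call. At 0 h, 3 then opened (2.94%) and 4 closed (3.92%), against 2.55% and 3.24%. As deposited, PRKD1, a kinase of class IIa deacetylases, had the most closed at 0 h (3 of 10), and shared the most at 60 h with CAMK2D (2 each). With equal list length PRKD1 had 0 closed at 0 h, and PRKD1 and CAMK2D each had 2 closed at 60 h.

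SRF targets, 25 genes with 231 linked regions, had 26 closed in each label (11.3%), with 7 opened in CBP and 2 in WT. The balance turned round in lists of equal length, with 6 closed and 16 opened in CBP (3.30% and 8.79%) and 8 closed and 14 opened in WT (4.40% and 7.69%). As deposited, MYH9, a nonmuscle myosin heavy chain, had 7 closed and 2 opened of 34 in CBP, and 4 closed and 1 opened in WT, where VCL, the focal adhesion protein vinculin, also had 4 closed. With equal list length MYH9 had 1 closed and 4 opened in CBP and 2 closed and 4 opened in WT. VCL then had 1 closed in WT. For CBP against WT, 7 opened (3.03%) and 9 closed (3.90%) at 60 h and 5 opened (2.16%) and 11 closed (4.76%) at 0 h. Of linked regions, 3.14% opened and 3.17% closed at 60 h, and 2.23% and 3.35% at 0 h. TPM1, a tropomyosin, had the most opened, 2 of 22 at 60 h and 3 of 22 at 0 h. With equal list length 6 opened (3.30%) and 10 closed (5.49%) at 60 h, against 3.82% and 4.76% of linked regions with a call. At 0 h, 1 then opened (0.549%) and 5 closed (2.75%), against 2.55% and 3.24%. TPM1 then had 1 opened and 2 closed at 60 h and 1 opened and 0 closed at 0 h.

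MEF2 targets, 20 genes with 185 linked regions, had 27 closed and 6 opened in CBP (14.6% closed) and 24 closed and 2 opened in WT (13.0%). Equal list length changed this to 14 closed and 12 opened in CBP and 6 closed and 10 opened in WT, so the balance turned round in WT. As deposited, MYOM2, a protein of the sarcomeric M-band, had 5 closed of 19 in CBP and its relative MYOM1 had 5 closed of 23 in WT. With equal list length MYOM2 had 1 closed in CBP and MYOM1 had 1 closed in WT. MYOG, which drives terminal muscle differentiation, had 1 opened of 10 in each label, and in lists of equal length 3 in CBP and 1 in WT. In CBP against WT, 5 opened (2.70%) and 8 closed (4.32%) at 60 h and 3 opened (1.62%) and 9 closed (4.86%) at 0 h. Of linked regions, 3.14% opened and 3.17% closed at 60 h, and 2.23% and 3.35% at 0 h. The most closed were at XIRP2, an actin-binding protein, with 2 at 60 h, and at JPH1 and MYH7 with 2 each at 0 h. With equal list length 3 opened (2.07%) and 9 closed (6.21%) at 60 h, against 3.82% and 4.76% of linked regions with a call. At 0 h, 6 then opened (4.14%) and 9 closed (6.21%), against 2.55% and 3.24%. XIRP2 then had 2 closed at 60 h, and JPH1 and MYH7 had 0 closed at 0 h.

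Regions of satellite cell and myoblast markers were present. PAX7, MYOD1, MYF5 and DES had 5 of 42, 3 of 8, 2 of 5 and 3 of 5 regions called in all 8 libraries, and the list of 8 genes had 29 of 123 (23.6%). Marker lists of fibroblast, endothelial, immune, neural and smooth muscle cells had 16.7% to 42.2%, against 31.8% of linked regions, and the satellite cell list lay within that range. Calls at marker regions also differed between the times. Satellite cell and myoblast markers had 25 closed in CBP (20.3%) and 28 in WT (22.8%) with none opened, against 14.5% and 14.3% of linked regions closed. Fibroblast markers had 1 opened (2.08%) and 7 closed (14.6%) of 48 in CBP, and 5 opened (10.4%) and 3 closed (6.25%) in WT. The lists of equal length gave satellite cell markers 10 closed and 4 opened in CBP and 8 closed and 2 opened in WT. Fibroblast markers then had 3 closed and 5 opened in CBP and 1 closed and 9 opened in WT. Endothelial, immune, neural and smooth muscle lists had 2 to 13 regions closed per label in calls as deposited. Endothelial markers had the highest share of these, 13 of 65 in WT (20%), with 9 in CBP (13.8%). Immune, neural and smooth muscle lists had 6.67% to 13.3% closed. In CBP, 2 of 18 neural and 1 endothelial region opened. With equal list length endothelial markers had 0 closed and 5 opened in WT, and 2 closed and 3 opened in CBP. Immune and neural lists then had 0 closed and 1 to 2 opened per label. Smooth muscle had 1 closed and 0 opened in WT, and 2 closed and 1 opened in CBP. The part of these marker changes in the results for the 5 genes was not tested.

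Likeness to other genes was measured as the mean absolute difference, over the 8 libraries, in the share of linked regions called, among 9307 genes with at least 5 regions. MEF2C was most like MREG (1.84 percentage points), KCNE4 (2.23) and VPS37B (2.60). MEF2D was most like RYR2 (2.84), CLIP2 (2.88) and MGAT5 (3.72). MEF2A was most like ADRA2C, GPX6 and NCAPG2, tied at 3.75 points. MYOCD was most like BBS12 and KIAA0368, both at 4.69 points, and ADGRL4 at 5.21. SRF had all of its regions called everywhere, as did 5 genes with 5 or more regions, among them ATG13, CBLC and EIF2B2. With 3 regions SRF is itself below that minimum, and smaller genes were not compared. One such gene of the lists above, ELK1, also had all of its regions called everywhere (2 of 2). These points share libraries and depth and are descriptions.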

How the data were processed

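ATAC-seq peak lists of 8 libraries in 4 groups were used. Trimming by Trimmomatic and peak calling by MACS2 2.1.0 on Sscrofa11.1 are named per the submitters' processing notes. The aligner, the treatment of duplicates and any correction for the offset of the transposase, which set the height and edges of peaks, are not given in the sources used. For every library the authors deposited its own list, which holds per peak a score, a fold over the local background, and a p-value and q-value on the −log10 scale. These values are the authors' own and served to describe, rank or filter peaks within a list and to recover relative depth (100% of pileups came out whole, within 0.01 in −log10 p). No read totals are in the lists, so precision is given as the spread between libraries.

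A 1 bp overlap merged peaks of chromosomes 1 to 18 and X, and 8203 peaks elsewhere were left out. Each region was linked to the nearest end of a protein-coding gene in the RefSeq table of Sscrofa11.1 within 50 kb. This linked 64.4% of regions to 17474 genes, and where 2 ends lay in 1 region the lower coordinate was taken. The table gives no strand, exons or introns and no genome sequence was used here, so promoters were not named, both gene ends were treated alike and no motif was searched. All 5 genes are named, and regions are described where they opened or closed in any comparison, lie over a gene end, or are among the 2 strongest of a gene called in most libraries. MRTFA was matched by its older symbol MKL1, and likewise for 3 other genes. The genes, lists and regions were chosen with earlier results of these data known.

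The libraries were compared by counts of calls and, over 8 libraries, by a two-sided exact permutation test per region with Benjamini-Hochberg adjustment over all regions. The merging and linking were checked by separate computations on these lists. The call rule and the permutation test of calls were checked on simulated calls. The rank test and the replicate block were not checked in this way. Alternatives were a −log10 q of at least 5, equal peak numbers, 50% coverage, links within 10 kb, links by midpoint, regions in or within 50 kb of a gene, each replicate left out, and a replicate block. Ranks in lists of equal length, and ranks by fold, were added after the data had been seen. Python 3.11.15, numpy 2.4.6, pandas 2.3.3, scipy 1.17.1 and matplotlib 3.10.9 were used.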

Additional observations from a re-analysis of the deposited data

How the results depend on the processing

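Counts below are regions of the 79, given for opened and closed in turn. With a −log10 q of at least 5, CBP 60 h against CBP 0 h gave 0 opened and 12 closed. In that setting CBP 0 h against WT 0 h gave 1 opened and 1 closed, and CBP 60 h against WT 60 h gave 4 closed. With equal peak numbers, CBP 60 h against CBP 0 h gave 2 opened and 2 closed, WT 60 h against WT 0 h gave 3 and 2, CBP 0 h against WT 0 h gave 0 opened, and CBP 60 h against WT 60 h gave 2 opened. This setting removes the weaker peaks of the deeper libraries by its construction. With 50% of a region covered, closed regions numbered 15 in CBP and 13 in WT between the times, 4 in CBP against WT at 0 h and 5 at 60 h, where 2 opened. With links within 10 kb, which keep 30 regions, CBP 60 h against CBP 0 h gave 0 and 2, WT 60 h against WT 0 h gave 2 closed, CBP 0 h against WT 0 h gave 1 and 1, and CBP 60 h against WT 60 h gave 0 and 0. With every region inside a gene or within 50 kb of it, 116 in all, 17 closed in CBP and 15 in WT between the times, and 2 opened and 2 closed in CBP against WT at 60 h. Links by midpoint changed none of these counts. For the 30 and the 116 regions no share of all regions is given, so those counts describe the settings alone.

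Leaving out 1 library, which loosens the rule, gave 1 to 3 opened and 12 to 20 closed in CBP and 0 to 2 opened and 10 to 14 closed in WT between the times. In CBP against WT it gave 3 to 9 opened and 3 to 6 closed at 0 h, and 1 to 4 opened and 2 to 7 closed at 60 h. No region passed an adjusted p of 0.05 in the exact permutation test in any of these settings or with the replicate block, where 0 passed and the smallest permutation p is 0.125. Whether replicate numbers pair the samples is not said in the labels. The correlation of replicate differences in calls between groups lay between -0.0127 and 0.00449, which cannot show how the samples were prepared.

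By rank in lists of equal length, leaving out 1 library gave 7 to 9 higher and 2 to 3 lower of 24 at 60 h against 0 h. It gave 13 to 16 higher and 6 to 9 lower in CBP, and 13 to 15 higher and 7 to 9 lower in WT. In CBP against WT it gave 10 to 13 higher and 4 to 7 lower at 0 h, 11 to 14 higher and 4 to 7 lower at 60 h, and 1 to 2 higher and 2 lower over 8 libraries. No share of all regions is given beside these counts either. By fold, 9 ranked higher at 60 h and 1 lower, MEF2A region 6, and 0 ranked higher and 1 lower in CBP against WT. The cause of these changes was not tested. Calls at 60 h come from shallower libraries, and time and depth cannot be told apart in them.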

Other observations

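The body of MEF2C held 15 further regions that lie over 50 kb from both of its ends, from 96172980 to 96244528 on chromosome 2, and so belong to no gene under the linking rule. Calls there numbered 4 and 4 in CBP 60 h, 6 and 6 in WT 60 h, 11 and 9 in CBP 0 h, and 10 and 12 in WT 0 h. Of the 15, 2 were called in all 8 libraries, from 96179287 to 96179986 and from 96186178 to 96187904. Between the times 4 closed in CBP and 4 in WT, and 1 opened in CBP 60 h against WT 60 h. In all, 6 of the 15 changed in at least 1 comparison (40%), against 29.6% of all regions.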
